A study of Mus musculus with 47 samples.

Results

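The transcriptional repressors of the circadian clock described here are the Period genes Per1, Per2 and Per3, the cryptochromes Cry1 and Cry2, and Ciart. They were taken by symbol or Ensembl identifier from a table of raw read counts over exons, in which all 6 were found among 38087 genes. Ciart is listed there as Gm129. All 6 passed the filter on low counts in both tissues. The table comes from a total RNA sequencing study of male C57BL/6j mice, 15 to 16 weeks old and fed ad libitum. The mice were either raised conventionally, with a gut flora (convR), or germ-free, without microorganisms (GF). Duodenum and ileum were taken at zeitgeber times ZT2, ZT6, ZT10, ZT14, ZT18 and ZT22 (hours after lights on). Each tissue, status and time has 2 libraries except GF ileum at ZT2, which has 1, so that 47 libraries were compared. Strain, sex and feeding were the same in every group, and the labels name no genetic change and no treatment other than the germ-free state. The labels number the replicates without saying that they are separate animals, so the p-values measure the spread between these libraries, part of which may be technical. Whole tissue was used, and fewer cells of a type cannot be told apart from less RNA per cell.

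In the mammalian clock the activators CLOCK and BMAL1 (encoded by Arntl) bind E-boxes and switch on the Per, Cry and Ciart genes. PER and CRY proteins accumulate in complexes, enter the nucleus and silence their own activators, and CIART (also called CHRONO) is a smaller repressor that binds BMAL1. The REV-ERB nuclear receptors and their relatives set the timing of Arntl and Cry1 through their own response elements, and D-box factors such as DBP and TEF act on Per genes. In the intestine the clock times digestion, absorption and cell renewal and takes cues from meals.

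Library totals ran from 22546800 to 41911085 counts (median 31935017). In each of the 23 replicate pairs the libraries differed beyond counting error (chi-square 18.4 to 159 times its degrees of freedom). The tissue markers separated by label, and Fabp6, the ileal bile acid binding protein, lay at 206 to 4484 CPM (counts scaled per-million of the library total) in ileum and at or below 2.41 CPM in duodenum. By pancreas or stomach markers over 100 CPM on average, a scaling factor over 1.2, or Fabp6 under 1000 CPM in ileum, 10 duodenum libraries (7 convR and 3 GF) and 2 ileum libraries stood apart. Results are given without them where the remaining libraries allow a test. Without them duodenum keeps 5 convR libraries at 4 times and 9 GF libraries at 5 times, with no convR library at ZT6 or ZT14 and no GF library at ZT22. Only 3 times (ZT2, ZT10 and ZT18) then hold both statuses, so duodenum differences at ZT6, ZT14 and ZT22 could not be tested without them. Summed T and B lymphocyte markers moved with status, at 1208 to 2333 CPM (median 1595) in convR and 123 to 353 CPM (median 192) in GF duodenum. All 8 markers were lower in GF and none was at 0. In ileum the same sum was 602 to 1334 CPM (median 847) in convR and 41.2 to 105 CPM (median 65.6) in GF, with 7 of 8 markers lower. Also in ileum, summed smooth muscle markers were 1433 to 2352 CPM (median 1643) in convR and 1921 to 2858 CPM (median 2071) in GF, with 7 of 8 called higher. Summed adipocyte markers there were 53.03 to 114 CPM (median 89.02) in convR and 37.3 to 161 CPM (median 57.7) in GF, with 3 of 6 called lower and none of either list at 0. In duodenum 1 of 8 smooth muscle markers was called higher and 0 of 5 adipocyte markers tested passed (edgeR; 0 with an unadjusted p under 5%). Summed epithelium markers in duodenum had medians of 12177 CPM in convR and 14006 CPM in GF. In ileum their medians were 16378 and 18712 CPM, and the ranges overlapped in both tissues. The part of these markers in the results below was not tested. Scaling by library totals alone, in place of TMM (trimmed mean of M values), moved the median GF minus convR difference of all genes from -0.01 to -0.14 on the log2 scale in duodenum. It moved the share of called genes that were higher from 48.5% to 24.5% there and from 46.6% to 32.2% in ileum.

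The 250 bases before 3 of the transcription starts are printed because they carry repeated or paired control elements. RefSeq promoters (GRCm38.p6, the same build as mm10) were matched for 5 of the 6 genes, Per1 with 2 starts, and Per2 was not matched. The E-box (CACGTG, read the same on either strand) is the element of CLOCK and BMAL1, its variant is the E-prime box (CACGTT), and the D-box (TTATGTAA) is the element of DBP, TEF and HLF. Capitals mark these letters on either strand, so that CACGTT on the other strand reads AACGTG, and none of the marked matches overlap. Each sequence is on the gene's own strand, 5′ to 3′, and ends at the base before the RefSeq start: Ciart at chr3:95882229-95882478 (minus strand), Cry1 at chr10:85185055-85185304 (minus strand) and Per3 at chr4:151044666-151044915 (minus strand).
Ciart: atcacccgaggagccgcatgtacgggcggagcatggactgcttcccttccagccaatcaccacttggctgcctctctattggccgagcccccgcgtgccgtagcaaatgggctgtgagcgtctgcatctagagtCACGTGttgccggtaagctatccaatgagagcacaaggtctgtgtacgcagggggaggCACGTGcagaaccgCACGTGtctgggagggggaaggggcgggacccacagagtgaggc
Cry1: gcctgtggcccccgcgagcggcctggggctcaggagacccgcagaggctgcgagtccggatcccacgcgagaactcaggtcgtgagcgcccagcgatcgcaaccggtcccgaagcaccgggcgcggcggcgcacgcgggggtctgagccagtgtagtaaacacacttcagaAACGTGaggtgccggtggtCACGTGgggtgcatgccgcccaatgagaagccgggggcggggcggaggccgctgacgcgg
Per3: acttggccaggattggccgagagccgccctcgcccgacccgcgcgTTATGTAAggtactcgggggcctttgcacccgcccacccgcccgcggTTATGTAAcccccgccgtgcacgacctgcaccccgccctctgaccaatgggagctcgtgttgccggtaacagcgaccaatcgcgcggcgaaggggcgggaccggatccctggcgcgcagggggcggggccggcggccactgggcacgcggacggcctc

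The Ciart stretch holds 3 E-boxes, which begin 116, 58 and 44 bases before the start. That of Cry1 holds 1 E-box at 60 bases and 1 E-prime box at 79 bases before the start, and that of Per3 holds 2 D-boxes at 205 and 158 bases and no E-box. Of the stretches not printed, the first Per1 start (chr11:69098699-69098948, plus strand) has 1 E-box at 166 bases, the second (chr11:69099902-69100151, plus strand) has none of the 3 elements, and Cry2 (chr2:92434070-92434319, minus strand) has 1 E-prime box at 166 bases. Over all 32817 RefSeq promoters of this length, 6.02% hold an E-box, 3.85% an E-prime box and 0.817% the D-box. Searches on both strands for the D-box written with C (TTACGTAA, in 0.113% of promoters) and for the full cyclic AMP response element (TGACGTCA, 1.55%) found no match in these 6 stretches. The first 5 letters of that element (TGACG, 17.75%) were found before both Per1 starts and in Cry1 and Cry2. The letters TNGGTCA (9.19%, N for any base), a loosened core of the REV-ERB response element, matched in Per3 and Cry2 as TGACCAA. Those matches read TTGGTCA on the other strand. No fuller form of the element was searched, so they are not named as REV-ERB sites. These are matches of letters, and no binding was measured.

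Per unit of exon length, Cry1 and Per2 had the highest mean levels of the 6 genes in every group and Ciart the lowest. In convR duodenum (n = 12 libraries) the mean and SD over all times were 10.5 ± 5.65 CPM per kb of exon for Cry1, 9.43 ± 6.57 for Per2, 3.13 ± 2.42 for Per3, 2.75 ± 1.76 for Per1, 2.49 ± 0.988 for Cry2 and 0.705 ± 0.874 for Ciart. Cry1 and Per2 thus stood well above the other Period genes and Cry2. Of these neighbours in the order, Cry2 and Ciart alone differed by more than the larger SD of the pair, and the SD includes the change over the day. In GF duodenum (n = 12) the order was Per2 at 10.4 ± 6.27 CPM per kb, Cry1 at 10.1 ± 4.43, Per1 at 4.69 ± 3.62, Per3 at 4.65 ± 3.39, Cry2 at 4.16 ± 1.38 and Ciart at 2.13 ± 2.9996. There the step from Cry1 to Per1 was the one beyond the larger SD. In convR ileum (n = 12) it was Cry1 at 10.7 ± 3.53 CPM per kb, Per2 at 9.45 ± 5.20, Cry2 at 3.24 ± 0.910, Per3 at 3.24 ± 2.21, Per1 at 2.35 ± 1.40 and Ciart at 0.864 ± 0.990. There Per2 against Cry2 and Per1 against Ciart were beyond it. By mean, Cry2 came next after Cry1 and Per2 in ileum and after all 3 Period genes in duodenum. Its step to Per3 in ileum, and to the lowest Period gene in duodenum, was within the larger SD in both statuses. In GF ileum (n = 11) the order was Per2 at 10.1 ± 6.26 CPM per kb, Cry1 at 10.1 ± 4.36, Cry2 at 5.18 ± 1.41, Per3 at 5.10 ± 3.39, Per1 at 3.21 ± 1.88 and Ciart at 1.70 ± 2.04. There Cry1 against Cry2 was beyond it.

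**Figure D1:**
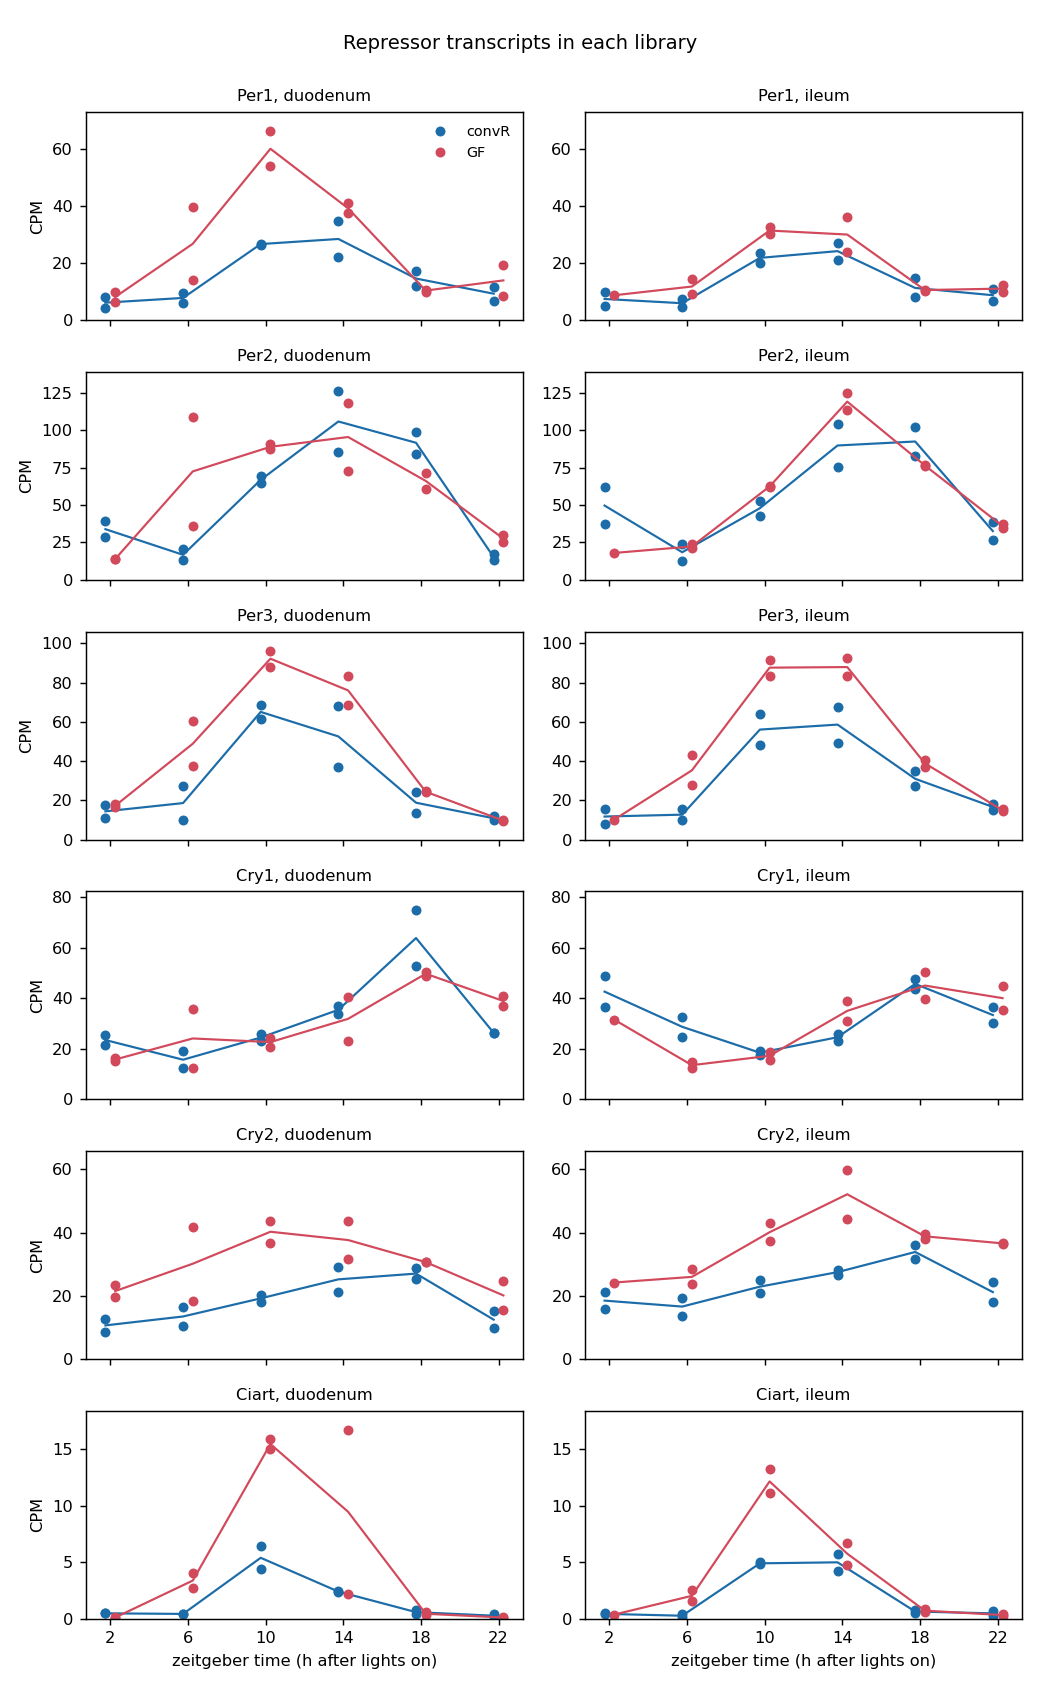
Level of each of the 6 repressors in CPM (linear axis from 0) against zeitgeber time in hours, in duodenum (left panels) and ileum (right panels). Points are single libraries, lines join the means of convR (blue) and GF (red), and Cry2 in GF lies above convR at all 6 times in both tissues.

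Averaged over the day, Cry2, Per3 and Per1 were higher in GF than in convR mice in both tissues, Ciart was called higher in ileum, and neither Per2 nor Cry1 passed the test in either tissue. In duodenum 3 of the 6 genes rose and none fell, where 46.3% of 17986 genes were called and 22.5% were called higher (edgeR quasi-likelihood test with time as a factor, Benjamini-Hochberg adjusted p under 5%). In ileum 4 of 6 rose and none fell, where 42% of 18082 genes were called and 19.5% were called higher. The median log2 difference of the 6 genes was 0.71 in duodenum and 0.50 in ileum, against -0.01 and 0.01 over all genes tested. Without the libraries that stood apart, 2 of 6 rose in duodenum (Cry2 and Per3), where 3 times hold both statuses, and 3 of 6 in ileum (Cry2, Per3 and Per1).

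In duodenum the GF libraries of most repressors stood above convR at ZT6 and ZT10. At ZT2, 1 of the 6 had every GF library above every convR library (23.7% of all genes) and 3 had them all below (33.9%). EdgeR called 0 of 6 at ZT2 (3.16% of genes), and 2 of 6 had an unadjusted p under 5%. At ZT6, 5 of the 6 had every GF library above every convR library (11.6% of all genes) and 0 had them all below (44.1%). Among the 6, 5 were called higher (6.52%), where 12.5% of genes were called in all. At ZT10, 5 of the 6 had every GF library above every convR library (23% of all genes) and 0 had them all below (42.1%). Among the 6, 1 was called higher (6.82%), where 12.9% of genes were called in all. ZT6 thus held 5 of the 7 calls over single times in duodenum. Of its 4 libraries 3 stood apart, both convR replicates (scaling factor 1.27 in replicate 1, pancreas markers 129.9 CPM on average in replicate 2) and GF replicate 1. These 5 calls therefore have no value from convR libraries within the criteria. The convR replicate 1 library also had the lowest epithelium markers of convR duodenum (900 CPM on average, median 1522). Its smooth muscle markers were the highest there (202 CPM on average, median 97.2). At ZT14, 3 of the 6 had every GF library above every convR library (13.8% of all genes) and 0 had them all below (39.6%). Among the 6, 1 was called higher (4.25%), where 8.55% of genes were called in all. At ZT18, 2 of the 6 had every GF library above every convR library (16.7% of all genes) and 3 had them all below (42.2%). EdgeR called 0 of 6 at ZT18 (5.12% of genes), and 0 of 6 had an unadjusted p under 5%. At ZT22, 3 of the 6 had every GF library above every convR library (13.3% of all genes) and 0 had them all below (23%). EdgeR called 0 of 6 at ZT22 (1.3% of genes), and 2 of 6 had an unadjusted p under 5%. Separation is read on CPM of the library total, and since a pair of libraries often lies wholly on one side of another pair, the share of all genes stands beside each count.

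In ileum 8 calls were spread over 5 of the 6 times. At ZT2, 1 of the 6 had every GF library above every convR library (32.7% of all genes) and 3 had them all below (41%). Among the 6, 1 was called lower (1.47%), where 2% of genes were called in all. At ZT6, 4 of the 6 had every GF library above every convR library (16.7% of all genes) and 1 had them all below (25.5%). Among the 6, 2 were called higher (1.25%) and 1 was called lower (3.35%), where 4.6% of genes were called in all. At ZT10, 5 of the 6 had every GF library above every convR library (17.8% of all genes) and 0 had them all below (26.1%). Among the 6, 2 were called higher (1.91%), where 7.33% of genes were called in all. Per2 at ZT2 and Cry1 at ZT6 were called lower, and the ZT2 test rests on 1 GF library, which is assumed to vary like the replicated groups. At ZT14, 4 of the 6 had every GF library above every convR library (14.3% of all genes) and 0 had them all below (38.1%). Among the 6, 1 was called higher (1.9%), where 6.5% of genes were called in all. At ZT18, 2 of the 6 had every GF library above every convR library (19% of all genes) and 1 had them all below (28.8%). EdgeR called 0 of 6 at ZT18 (5.15% of genes), and 0 of 6 had an unadjusted p under 5%. At ZT22, 1 of the 6 had every GF library above every convR library (15% of all genes) and 0 had them all below (32.8%). Among the 6, 1 was called higher (1.72%), where 5.77% of genes were called in all. DESeq2 made 11 calls in duodenum and 10 in ileum over the 6 times. Without the libraries that stood apart edgeR called 5 in duodenum over the 3 times that could be tested, Per2 lower at ZT2 (-1.42, adjusted p = 0.0376), Per1 (1.28, adjusted p = 0.00246), Per3 (0.61, adjusted p = 0.00751) and Cry2 (1.18, adjusted p = 0.00306) higher at ZT10 and Per3 higher at ZT18 (0.95, adjusted p = 0.0139; log2 differences). Of all genes 1.38%, 18.2% and 2.32% were called at those times. Of the 7 calls from all libraries, Cry2 at ZT10 is the one at a time that could be tested in this way, and it passed. In ileum, without its 2 libraries, 6 of the 8 calls passed, and those of Per3 at ZT6 (1.28, adjusted p = 0.0982) and Cry2 at ZT22 (0.84, adjusted p = 0.117) did not.

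Per1 (ENSMUSG00000020893, chr11:69095217-69109960 on the plus strand of mm10) encodes a Period protein whose gene responds quickly to outside signals such as glucocorticoids and cyclic AMP. Per1 in convR duodenum, replicates 1 and 2, stood at 8.12 and 4.16 CPM at ZT2, 9.63 and 5.97 at ZT6, 26.5 and 26.9 at ZT10, 34.7 and 22.2 at ZT14, 17.1 and 12.1 at ZT18 and 11.8 and 6.78 at ZT22. Per1 in GF duodenum stood at 6.26 and 9.99 CPM at ZT2, 39.6 and 14.02 at ZT6, 53.9 and 66.3 at ZT10, 41.01 and 37.5 at ZT14, 10.02 and 10.7 at ZT18 and 19.3 and 8.56 at ZT22. The GF libraries were above convR at ZT6, ZT10 and ZT14, below it at ZT18, and overlapped it at ZT2 and ZT22, and the mean peaked at ZT10 in GF and at ZT14 in convR. Over the day Per1 rose by 0.79 ± 0.25 on the log2 scale (estimate ± SE, edgeR adjusted p = 0.0146) in GF duodenum, and without the libraries that stood apart the difference was 0.39 (adjusted p = 0.396). At ZT6 it rose by 2.05 ± 0.50 (adjusted p = 0.0174). The call was lost without GF ZT6 replicate 1 (1.13, adjusted p = 0.160) and without convR ZT6 replicate 1 or 2 (adjusted p = 0.0839 and 0.0763). That GF library, replicate 1 at ZT6, stood apart by its pancreas markers (mean 825 CPM against 11.5 CPM in replicate 2), and both convR libraries at ZT6 stood apart too. Its Period and cryptochrome values were all above those of replicate 2 and its Ciart value below, and the part of the markers in this was not tested.

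Per1 in convR ileum stood at 10.002 and 4.88 CPM at ZT2, 7.36 and 4.54 at ZT6, 23.7 and 19.99 at ZT10, 27.2 and 21.2 at ZT14, 14.6 and 7.97 at ZT18 and 10.8 and 6.70 at ZT22. Per1 in GF ileum stood at 8.74 CPM at ZT2 in its 1 library, 14.3 and 9.30 at ZT6, 32.7 and 30.1 at ZT10, 36.2 and 23.8 at ZT14, 10.4 and 10.7 at ZT18 and 12.4 and 9.73 at ZT22. The GF values were above convR at ZT6 and ZT10 and overlapped at the other 4 times. Per1 in ileum thus kept the same order as in duodenum at ZT6 and ZT10. The mean level rose by 0.45 ± 0.15 (edgeR adjusted p = 0.0221), and with library totals alone it was 0.39 (adjusted p = 0.0550). No single time passed in ileum, and the ZT6 difference was 1.03 ± 0.37 (adjusted p = 0.154). From the lowest to the highest time mean, Per1 spanned 4.64-fold in convR duodenum, 7.40-fold in GF duodenum, 4.07-fold in convR ileum and 3.60-fold in GF ileum.

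Per2 (ENSMUSG00000055866, chr1:91415982-91459324 on the minus strand) encodes a Period protein that mice need for sustained daily rhythms. Per2 in convR duodenum stood at 39.4 and 28.4 CPM at ZT2, 20.5 and 13.1 at ZT6, 69.2 and 64.4 at ZT10, 126 and 85.4 at ZT14, 98.8 and 84.4 at ZT18 and 17.1 and 13.3 at ZT22. Per2 in GF duodenum stood at 14.03 and 13.8 CPM at ZT2, 109 and 35.9 at ZT6, 87.2 and 90.6 at ZT10, 72.7 and 118 at ZT14, 60.8 and 71.5 at ZT18 and 25.1 and 29.96 at ZT22. GF libraries were below convR at ZT2 and ZT18, above it at ZT6, ZT10 and ZT22, and on both sides of it at ZT14, so the order of the groups changed over the day. The daily mean did not pass the test, at 0.36 ± 0.31 on the log2 scale (edgeR adjusted p = 0.362), and was -0.34 without the libraries that stood apart. At ZT6 Per2 rose by 2.38 ± 0.38 (adjusted p = 0.00156), and no single left-out library ended the call, though 3 of the 4 libraries at that time stood apart. The values then lay between 1.38 and 2.96, the lower one without GF ZT6 replicate 1 and the higher one without GF ZT6 replicate 2. The convR libraries at that time were near the trough of their day, while the GF libraries at ZT6 were already above every GF library at ZT2 and ZT22.

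Per2 in convR ileum stood at 61.8 and 37.5 CPM at ZT2, 24.1 and 12.8 at ZT6, 53.03 and 42.8 at ZT10, 104 and 75.4 at ZT14, 102 and 83.03 at ZT18 and 38.8 and 26.4 at ZT22. Per2 in GF ileum stood at 18.01 CPM at ZT2 in its 1 library, 23.7 and 21.02 at ZT6, 62.2 and 62.6 at ZT10, 113 and 125 at ZT14, 76.4 and 76.5 at ZT18 and 34.8 and 37.1 at ZT22. The groups again crossed, with GF below convR at ZT2 and ZT18, above at ZT10 and ZT14, and overlapping at ZT6 and ZT22. The mean difference was 0.09 ± 0.17 (edgeR adjusted p = 0.695). At ZT2 Per2 fell by 1.44 ± 0.33 in GF (edgeR adjusted p = 0.0401, 2% of genes called), with a single GF library there, so that its spread is taken from the other groups. That call was lost in 12 of 22 omissions of 1 library, with an adjusted p of 0.153 without convR ZT2 replicate 1 and of at most 0.0615 without convR ZT18 replicate 1 or 2 or any GF library of ZT6 to ZT22 other than ZT22 replicate 1. The same contrast in duodenum was -1.23 ± 0.37 (adjusted p = 0.0866, 3.16% of genes called) and did not pass. Per2 spanned 6.97-fold between its lowest and highest time in convR duodenum, 6.87-fold in GF duodenum, 5.004-fold in convR ileum and 6.61-fold in GF ileum.

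Per3 (ENSMUSG00000028957, chr4:151003652-151044665 on the minus strand) encodes the Period protein that the core oscillator can do without, and its gene is a strongly cycling output in peripheral tissues. Per3 in convR duodenum stood at 17.8 and 10.97 CPM at ZT2, 27.1 and 10.1 at ZT6, 68.6 and 61.5 at ZT10, 67.96 and 37.2 at ZT14, 13.5 and 24.1 at ZT18 and 11.97 and 9.77 at ZT22. Per3 in GF duodenum stood at 16.4 and 18.1 CPM at ZT2, 60.3 and 37.4 at ZT6, 88.01 and 96.3 at ZT10, 83.4 and 68.6 at ZT14, 24.5 and 24.2 at ZT18 and 9.82 and 9.50 at ZT22. All GF values were above convR at ZT6, ZT10, ZT14 and ZT18 and overlapped at ZT2 and ZT22, when the gene was low. Per3 rose by 0.63 ± 0.18 over the day in GF duodenum (edgeR adjusted p = 0.00770), and by 0.53 without the libraries that stood apart (adjusted p = 0.0101). At ZT6 it rose by 1.70 ± 0.35 (adjusted p = 0.00775), and without GF ZT6 replicate 1 the difference was 1.32 (adjusted p = 0.0600), while without convR ZT6 replicate 1 it was 2.38.

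Per3 in convR ileum stood at 15.5 and 7.99 CPM at ZT2, 15.5 and 9.90 at ZT6, 64.1 and 48.04 at ZT10, 67.7 and 49.5 at ZT14, 27.2 and 34.7 at ZT18 and 18.3 and 15.03 at ZT22. Per3 in GF ileum stood at 10.2 CPM at ZT2 in its 1 library, 42.9 and 27.7 at ZT6, 91.7 and 83.5 at ZT10, 92.3 and 83.5 at ZT14, 40.5 and 37.2 at ZT18 and 14.4 and 15.6 at ZT22. As in duodenum, GF was above convR at ZT6, ZT10, ZT14 and ZT18 and overlapped it at ZT2 and ZT22. Over the day it rose by 0.55 ± 0.17 (edgeR adjusted p = 0.0123). The rise at ZT6 was 1.52 ± 0.28 (adjusted p = 0.00638), and the call was lost without GF ZT6 replicate 1 (0.111) or convR ZT6 replicate 2 (0.0791). Per3 spanned 5.98-fold in convR duodenum, 9.54-fold in GF duodenum, 4.98-fold in convR ileum and 8.59-fold in GF ileum.

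Cry1 (ENSMUSG00000020038, chr10:85131700-85185064 on the minus strand) encodes the late cryptochrome, which holds CLOCK and BMAL1 inactive on DNA. Cry1 in convR duodenum stood at 21.6 and 25.4 CPM at ZT2, 12.4 and 18.96 at ZT6, 25.8 and 23.2 at ZT10, 33.9 and 37.04 at ZT14, 74.9 and 52.9 at ZT18 and 26.4 and 26.3 at ZT22. Cry1 in GF duodenum stood at 16.5 and 15.1 CPM at ZT2, 35.7 and 12.5 at ZT6, 20.9 and 24.5 at ZT10, 23.2 and 40.6 at ZT14, 50.6 and 49.003 at ZT18 and 37.2 and 40.8 at ZT22. ZT18 was the highest time in both, GF was below convR there and at ZT2 and above it at ZT22, and the other 3 times overlapped. The mean difference of 0.11 ± 0.18 did not pass (edgeR adjusted p = 0.627), and it was -0.25 without the libraries that stood apart and -0.01 with library totals alone, so no direction is given.

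Cry1 in convR ileum stood at 36.5 and 48.9 CPM at ZT2, 32.8 and 24.7 at ZT6, 17.8 and 19.2 at ZT10, 23.1 and 26.1 at ZT14, 47.7 and 43.8 at ZT18 and 30.4 and 36.5 at ZT22. Cry1 in GF ileum stood at 31.6 CPM at ZT2 in its 1 library, 12.2 and 14.8 at ZT6, 15.7 and 18.8 at ZT10, 30.99 and 39.1 at ZT14, 50.6 and 39.6 at ZT18 and 44.9 and 35.4 at ZT22. GF was below convR at ZT2 and ZT6 and above it at ZT14, and overlapped it at ZT10, ZT18 and ZT22. The mean difference was -0.06 ± 0.15 (edgeR adjusted p = 0.774), but at ZT6 Cry1 fell by 1.04 ± 0.20 in GF (adjusted p = 0.00738), the single fall among the 6 genes at that time. Without GF ZT6 replicate 1 that difference was -0.91 and the adjusted p was 0.120. In duodenum the ZT6 difference of Cry1 was 0.82 ± 0.39 (adjusted p = 0.191), and its GF replicates were apart, at 35.7 and 12.5 CPM. Cry1 spanned 4.07-fold in convR duodenum, 3.15-fold in GF duodenum, 2.47-fold in convR ileum and 3.33-fold in GF ileum.

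Cry2 (ENSMUSG00000068742, chr2:92403646-92434043 on the minus strand) encodes the second cryptochrome, a partner of PER2, and it was higher in GF over the day in both tissues. Cry2 in convR duodenum stood at 12.7 and 8.55 CPM at ZT2, 16.4 and 10.5 at ZT6, 18.1 and 20.3 at ZT10, 29.1 and 21.3 at ZT14, 28.7 and 25.3 at ZT18 and 15.1 and 9.80 at ZT22. Cry2 in GF duodenum stood at 23.4 and 19.5 CPM at ZT2, 41.9 and 18.4 at ZT6, 36.8 and 43.7 at ZT10, 31.7 and 43.5 at ZT14, 30.7 and 30.6 at ZT18 and 24.7 and 15.5 at ZT22. Every GF library was above every convR library of its time at all 6 times, as was the case for 2.12% of genes tested. Cry2 rose by 0.92 ± 0.15 over the day (edgeR adjusted p = 3.98e-05), with values from 0.81 to 0.97 when each library was left out in turn. It rose by 0.79 without those that stood apart (adjusted p = 0.00757). At single times it rose by 1.43 ± 0.34 at ZT6 (adjusted p = 0.0145) and by 1.18 ± 0.33 at ZT10 (adjusted p = 0.0311, 12.9% of genes called). The ZT6 call was lost without GF replicate 1 (0.73, adjusted p = 0.162) and without convR replicate 1 or 2 of that time (0.0573 and 0.0694). The ZT10 call was lost without any 1 of the 4 ZT10 libraries (adjusted p up to 0.168).

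Cry2 in convR ileum stood at 21.2 and 15.7 CPM at ZT2, 19.4 and 13.7 at ZT6, 24.9 and 20.9 at ZT10, 28.3 and 26.7 at ZT14, 36.2 and 31.5 at ZT18 and 24.2 and 18.1 at ZT22. Cry2 in GF ileum stood at 24.2 CPM at ZT2 in its 1 library, 28.3 and 23.6 at ZT6, 37.2 and 42.97 at ZT10, 59.8 and 44.4 at ZT14, 39.5 and 38.1 at ZT18 and 36.4 and 36.7 at ZT22. Again every GF library was above convR at all 6 times, as for 2.6% of genes tested, with the smallest step at ZT18 in both tissues. The rise over the day was 0.70 ± 0.09 (edgeR adjusted p = 5.74e-06), and 0.65 to 0.74 with each library left out. Cry2 rose at ZT10 by 0.86 ± 0.19 (adjusted p = 0.0111, 7.33% of genes called), at ZT14 by 1.04 ± 0.19 (adjusted p = 0.00462, 6.5% called) and at ZT22 by 0.88 ± 0.19 (adjusted p = 0.0142, 5.77% called). Each of these calls was lost without 1 of certain libraries of its own time, namely convR replicate 1 (0.0579) or 2 (0.0874) or GF replicate 2 (0.147) at ZT10, GF replicate 1 (0.0650) at ZT14, and convR replicate 2 (0.140) or GF replicate 2 (0.131) at ZT22 (adjusted p in brackets). The daily span of Cry2 was the narrowest of the 6 genes, at 2.54-fold in convR duodenum, 2.00005-fold in GF duodenum, 2.04-fold in convR ileum and 2.15-fold in GF ileum.

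Ciart (ENSMUSG00000038550, chr3:95878503-95882251 on the minus strand) encodes the small repressor CHRONO, and its transcript was the lowest of the 6 and the nearest to 0 at its trough. Ciart in convR duodenum stood at 0.472 and 0.494 CPM at ZT2, 0.462 and 0.398 at ZT6, 4.36 and 6.41 at ZT10, 2.47 and 2.34 at ZT14, 0.397 and 0.777 at ZT18 and 0.143 and 0.404 at ZT22. Ciart in GF duodenum stood at 0.0645 and 0.155 CPM at ZT2, 2.70 and 4.06 at ZT6, 14.998 and 15.9 at ZT10, 16.7 and 2.21 at ZT14, 0.322 and 0.565 at ZT18 and 0.0407 and 0.183 at ZT22. GF was above convR at ZT6 and ZT10 and below it at ZT2, and the other 3 times overlapped, with the GF replicates at ZT14 as far apart as 16.7 and 2.21 CPM (610 and 84 counts). At the trough the GF values rest on few reads, 2 and 5 counts at ZT2 and 1 and 7 at ZT22, so no fold is given there. Over the day the difference of 1.19 ± 0.48 missed the threshold (edgeR adjusted p = 0.0517), and it passed in 10 of the 24 omissions of 1 library. Without GF ZT14 replicate 1 it was 0.73 (adjusted p = 0.187). At ZT6 Ciart rose by 3.21 ± 0.75 (adjusted p = 0.0140), with the call lost without convR ZT6 replicate 1 (0.107) or 2 (0.0533) or GF ZT6 replicate 2 (0.0820). At ZT14 it rose by 2.14 ± 0.63 (adjusted p = 0.0489, 8.55% of genes called), a call that held in 3 of 24 omissions (convR ZT22 replicate 1 or 2, or GF ZT14 replicate 2). Without GF ZT14 replicate 1 the difference was 0.08 (adjusted p = 0.941).

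Ciart in convR ileum stood at 0.487 and 0.389 CPM at ZT2, 0.157 and 0.383 at ZT6, 4.81 and 4.99 at ZT10, 5.75 and 4.22 at ZT14, 0.733 and 0.549 at ZT18 and 0.707 and 0.255 at ZT22. Ciart in GF ileum stood at 0.373 CPM at ZT2 in its 1 library, 2.52 and 1.54 at ZT6, 11.1 and 13.2 at ZT10, 4.76 and 6.74 at ZT14, 0.872 and 0.570 at ZT18 and 0.216 and 0.441 at ZT22. GF was again above at ZT6 and ZT10 and below at ZT2, and overlapped convR from ZT14 to ZT22. Ciart rose by 0.81 ± 0.29 over the day (edgeR adjusted p = 0.0286), a call lost without convR ZT6 replicate 2, convR ZT10 replicate 1 or 2, or GF ZT10 replicate 2 (adjusted p 0.0555 to 0.0595). It was also lost without the 2 libraries that stood apart (0.74, adjusted p = 0.0670). At ZT6 it rose by 2.92 ± 0.48 (adjusted p = 0.00283, and 0.0518 without GF ZT6 replicate 1), and by 3.77 without convR ZT6 replicate 2. At ZT10 it rose by 1.35 ± 0.36 (adjusted p = 0.0314), and the call was lost without any 1 of the 4 ZT10 libraries (adjusted p 0.0632 to 0.224).

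**Figure D2:**
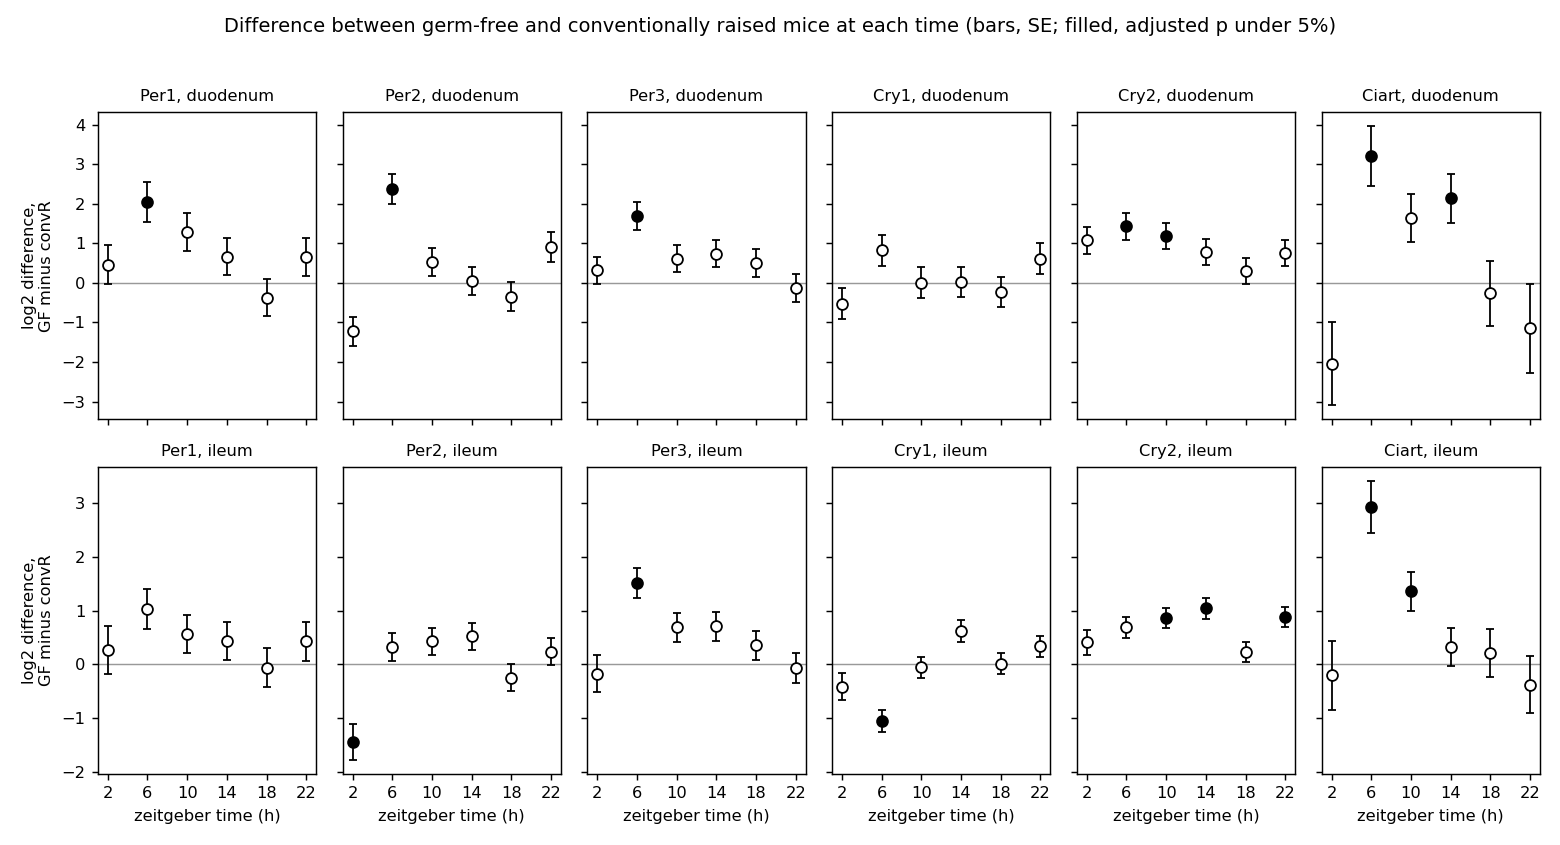
GF minus convR difference of each repressor on the log2 scale (estimate, with bars of 1 SE, from the edgeR fit with a mean for each status and time) against zeitgeber time in hours, in duodenum and ileum. Filled points passed the adjusted p of 5%. In duodenum 5 of the 6 genes passed at ZT6 and no gene passed at ZT18, while the Cry2 differences were above 0 at every time.

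EdgeR called a 24 h rhythm for 5 of the repressors in GF and 1 in convR ileum, and for 2 in GF and 1 in convR duodenum, and no difference in rhythm between the statuses passed its own test. The order of these counts depends on the method in duodenum. DESeq2 called 6 repressors in convR and 5 in GF duodenum, and 5 in convR and 6 in GF ileum. With time as a factor edgeR called 2 in convR and 1 in GF duodenum, and 1 and 5 in ileum. In convR duodenum 1 of 6 genes passed, Cry2 (edgeR F test of the cosine and sine terms, adjusted p = 0.0437), where 0.0334% of genes did. That call held in 2 of 12 omissions, those of ZT2 replicate 1 and ZT22 replicate 2, and without the libraries that stood apart Per3 (0.0384) and Ciart (0.0416) passed, from 5 libraries at 4 times, and Cry2 did not (0.388). Without convR ZT6 replicate 2 alone Per1 (0.0468), Per3 (0.0110) and Ciart (0.0315) passed. All 6 genes had an unadjusted p under 5% there, the largest being 0.00556 for Per2. In GF duodenum 2 of 6 passed, Per3 (adjusted p = 5.67e-07) and Ciart (0.00156), where 2.21% of genes did. Without GF ZT6 replicate 1 alone, Per2 (6.20e-04), Cry1 (0.00548) and Cry2 (0.0423) passed as well, so that 5 of 6 did, and Per1 passed without ZT22 replicate 1 (0.00817) and Cry2 without ZT6 replicate 2 (0.0474). In convR ileum Per3 alone passed (adjusted p = 0.0312, 0.122% of genes). It held without ZT2 replicate 1, ZT6 replicate 1, ZT6 replicate 2, ZT10 replicate 1 or ZT18 replicate 1 but not in the other 7 omissions. Ciart passed without ZT6 replicate 1 (0.0381). In GF ileum 5 of 6 passed (1.25% of genes): Per2 (adjusted p = 1.19e-07), Per3 (7.58e-06), Ciart (2.10e-05), Cry1 (0.00550) and Cry2 (0.0379, held only without ZT10 replicate 2, ZT18 replicate 1, ZT18 replicate 2 or ZT22 replicate 2). Per1 did not pass (0.0695). In the test of the difference in rhythm, 0% of genes passed in duodenum and 0% in ileum, with edgeR and with DESeq2, and 739 and 608 genes had an unadjusted p under 5%. Of the repressors these were Ciart (0.00686) and Cry2 (0.0240) in duodenum, and Cry1 (0.00551), Per3 (0.0339) and Per2 (0.0452) in ileum, with adjusted p of 0.9997 in duodenum and 0.9999 in ileum. When the spread was estimated from both statuses together, a setting chosen after seeing the data, 4 of 6 genes passed in each status in duodenum, and 3 in convR and 5 in GF ileum.

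In all 4 groups the fitted peaks ran in the order Ciart, then Per3 and Per1, then Per2 and Cry2, and last Cry1. Neighbours in this order could lie within the SE of each other, as Ciart and Per3 did in duodenum. Peaks come from a 24 h cosine fitted by least squares to log2(CPM + 0.5) on TMM-scaled totals, with sampling every 4 h, and the error is the SE of the fit. For Ciart, the fitted peak in duodenum was at 11.6 ± 0.804 h in convR and 10.7 ± 0.461 h in GF, and in ileum at 12.5 ± 0.773 h and 11.03 ± 0.410 h. For Per3, the fitted peak in duodenum was at 11.9 ± 0.729 h in convR and 10.9 ± 0.202 h in GF, and in ileum at 13.6 ± 0.518 h and 12.4 ± 0.219 h. For Per1, the fitted peak in duodenum was at 13.5 ± 0.616 h in convR and 10.98 ± 0.764 h in GF, and in ileum at 13.5 ± 0.879 h and 12.1 ± 0.759 h. In each of these 3 genes the GF peak was the earlier in both tissues. For Per2, it was at 14.4 ± 0.891 h and 12.6 ± 0.697 h in duodenum, and at 16.3 ± 1.06 h and 14.8 ± 0.155 h in ileum. For Cry2, it was at 14.8 ± 0.560 h and 12.1 ± 1.01 h in duodenum, and at 16.3 ± 0.716 h and 15.1 ± 0.703 h in ileum. For Cry1, it was at 17.4 ± 0.749 h and 17.5 ± 1.09 h in duodenum, and at 22.2 ± 1.03 h and 19.004 ± 0.532 h in ileum. In convR ileum the Cry1 means were 45.7 CPM at ZT18, 33.4 at ZT22 and 42.7 at ZT2, and the cosine had an r squared of 0.605. That fitted peak thus lies at a dip between higher values. ZT18 had the highest Cry1 mean in both statuses of ileum. In all, the GF peak was earlier in 11 of 12 cases, and Cry1 in duodenum was the exception. Of all genes tested, 49.7% had the earlier fitted peak in GF in duodenum, where 5 of the 6 repressors did, and 60.1% in ileum, where 6 did. Among genes with an unadjusted rhythm p under 5% in both statuses, a comparison chosen after seeing the data that holds all 6 repressors, the shares were 58.6% of 577 genes in duodenum and 82.5% of 514 in ileum. The 12 cases share libraries and are not independent, and in ileum most genes of that set had the earlier peak as well. By exact enumeration of all swaps of status labels within a time (46656 in duodenum, 23328 in ileum, two-sided), the exact p was below 5% for Cry1 in ileum (-3.15 h, p = 0.0154) and Per2 in ileum (-1.43 h, p = 0.0236). That is 2 of 6 there, where 2.68% of genes had such a p. In duodenum 0 of 6 did, where 2.51% of genes did, and the smallest exact p was that of Per1 (-2.52 h, 0.0701). Adjusted over all genes tested, these exact p-values came to 1. Levels were not centred by status before the swaps, which thus assume no status difference of any kind, in mean level as well as in peak. An exact p is therefore not a test of peak time alone. With each library left out in turn the ileum differences kept their sign, and the exact p of Cry1 stayed at or below 0.0460. That of Per2 was 0.0981 without convR ZT6 replicate 2, 0.0676 and 0.0647 without convR ZT2 replicate 1 and 2, 0.0598 without GF ZT2 replicate 2 and 0.0565 without GF ZT22 replicate 1. Without the 2 ileum libraries that stood apart the differences were -2.99 h for Cry1 (exact p = 0.0255) and -1.08 h for Per2 (exact p = 0.162). Without the 10 in duodenum, from 5 convR and 9 GF libraries, the GF peaks of Per3 and Ciart were 1.68 and 0.59 h later than in convR.

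The range from trough to peak on the log2(CPM + 0.5) scale, which understates it for genes as low as Ciart, was widest for Ciart in 3 of the 4 groups. In convR duodenum it was widest for Per2, by less than the SE. The cosine that edgeR fitted to the counts gave 4.16 for Ciart and 2.36 for Per2 there. The time means of convR duodenum spanned 19.7-fold for Ciart, the lowest from 19 counts, and 6.97-fold for Per2. On the log2(CPM + 0.5) scale the range of Ciart was 2.58 ± 0.54 in convR and 5.17 ± 0.62 in GF duodenum, and 2.92 ± 0.59 and 4.07 ± 0.44 in ileum. The wider GF range was compared by the same swaps, which assume no status difference of any kind and do not test the range alone. Its exact p was 6.43e-04 in duodenum (1 of 6 genes, 3.37% of genes had a p below 5%). In ileum the exact p was 0.0314 (1 of 6, 2.67%). The adjusted p over all genes were 0.9998 and 0.9999. The wider range held in duodenum with every single library left out (exact p up to 0.00626). Without those that stood apart the exact p was 0.037, but labels could then be swapped only at ZT2, ZT10 and ZT18 (54 swaps). The convR cosine then rests on 5 libraries at 4 times with none at ZT6 or ZT14, and the GF values at those times were never swapped. That setting therefore cannot decide whether the range differs. In ileum the exact p was 0.00754 without the 2 libraries that stood apart. It was 0.102 and 0.0810 without convR ZT2 replicate 1 and 2, 0.0981 without convR ZT22 replicate 1, 0.0793 without GF ZT2 replicate 2, 0.0603 without GF ZT14 replicate 2 and 0.0532 without GF ZT22 replicate 1. In both tissues the CPM of Ciart in GF was above convR at ZT10 and below it at ZT2, where few reads were counted. At ZT2 duodenum had 2 and 5 counts in GF and 18 and 19 in convR, and the difference did not pass (edgeR adjusted p = 0.330). In ileum the 1 GF library had 12 counts against 15 and 13 in convR (0.373 against 0.487 and 0.389 CPM, log2 difference -0.20). For Per3 the range was 2.49 ± 0.48 in convR and 3.30 ± 0.17 in GF duodenum, and 2.56 ± 0.35 and 3.16 ± 0.19 in ileum. For Per2 it was 2.64 ± 0.62 and 2.65 ± 0.48 in duodenum, and 1.88 ± 0.52 and 2.77 ± 0.12 in ileum. For Per1 it was 2.28 ± 0.37 and 2.74 ± 0.55 in duodenum, and 1.88 ± 0.43 and 1.88 ± 0.39 in ileum. For Cry1 it was 1.66 ± 0.33 and 1.41 ± 0.40 in duodenum, and 1.04 ± 0.28 and 1.76 ± 0.22 in ileum. Cry2 had the narrowest range of the 6 in each group, at 1.41 ± 0.21 in convR and 1.13 ± 0.30 in GF duodenum and 0.94 ± 0.18 and 1.03 ± 0.21 in ileum. The median range of all genes tested was 0.19 to 0.25 across the 4 groups and the 95th percentile 0.63 to 0.76, so each of the 6 repressors lay above that percentile in every group. The r squared of the cosine was highest for Per2 in GF ileum (0.985) and Per3 in GF duodenum (0.975), and lowest for Cry1 in GF duodenum (0.577). It did not follow the range in every group. In convR duodenum it was 0.671 for Per2, with the widest range, and 0.838 for Cry2, with the narrowest.

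**Figure D3:**
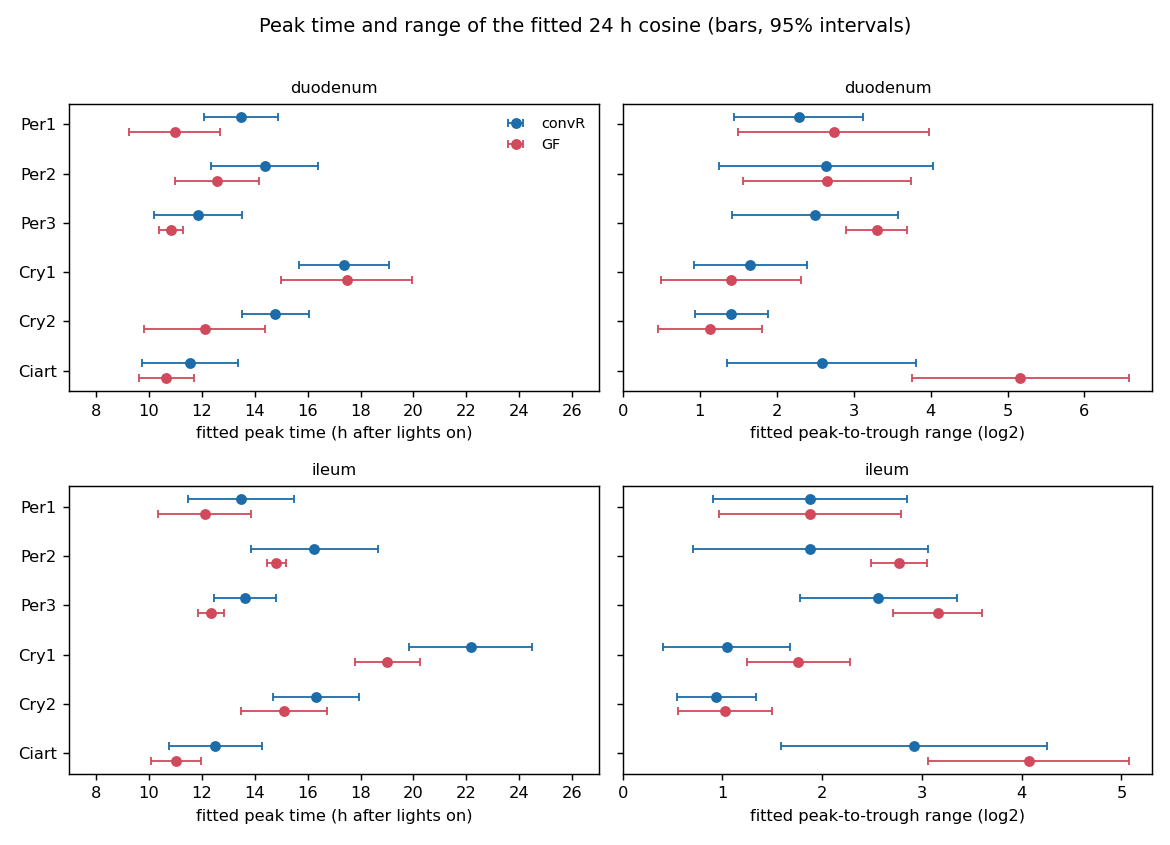
Fitted peak time (hours after lights on) and range from trough to peak (log2) of the 6 repressors in convR (blue) and GF (red), in duodenum and ileum, from the 24 h cosine, with bars of 95% intervals. The GF peak is the earlier in 11 of 12 cases, and the widest range is that of Ciart in GF duodenum, at 5.17.

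Between the tissues, Cry2 was higher in ileum among convR mice and Per1 lower in ileum among GF mice. In convR mice Per1 did not pass the planned test, which had no replicate block, and was called lower in ileum only with such a block. In convR libraries 1 of 6 genes was called, Cry2, which was higher in ileum by 0.38 ± 0.09 on the log2 scale (edgeR adjusted p = 0.00164). Of 18164 genes 49.6% were called and 24.9% were called higher in ileum. Its convR values ran from 13.7 to 36.2 CPM in ileum (median 22.7) and from 8.55 to 29.1 CPM in duodenum (median 17.3), so the tissues overlapped over the day. Equal replicate numbers were taken to pair the convR tissues after their correlation in these data was seen, and the labels do not state a pairing. With that replicate block Per1 passed too, lower in ileum by 0.24 (adjusted p = 0.00513), against -0.23 ± 0.15 (adjusted p = 0.198) without the block. In GF libraries 1 of 6 was called, Per1, which was lower in ileum by 0.61 ± 0.20 (edgeR adjusted p = 0.0122). Of 17909 genes 66.5% were called and 33.4% were called lower. Per1 ran from 8.74 to 36.2 CPM in GF ileum (median 12.4) and from 6.26 to 66.3 CPM in GF duodenum (median 16.7), so these tissues overlapped as well. With library totals alone the median tissue difference of all genes in GF moved from 0.01 to 0.13 and the share of calls that were higher in ileum from 49.8% to 63.3%, and Per1 stayed lower. The GF minus convR difference did not depend on tissue at the threshold for any of the 6 genes, where 12.3% of 19000 genes did (edgeR; 0 of 6 with an unadjusted p under 5%, and 0 with DESeq2). The nearest were Cry2 (ileum minus duodenum -0.21 ± 0.18, adjusted p = 0.509) and Per1 (-0.33 ± 0.30, 0.535). The share of these calls with a larger difference in ileum moved from 37.3% to 55.6% with library totals alone. In the test of rhythm between tissues none of the 6 passed in convR (0% of genes with edgeR, 568 with an unadjusted p under 5%, 4 genes with DESeq2) or in GF (0.0223%). Closest was Per3 in GF (unadjusted p = 1.29e-04, edgeR adjusted p = 0.257), which DESeq2 called (adjusted p = 0.00510), and whose fitted peak was at 10.9 h in duodenum and 12.4 h in ileum. Without GF ileum ZT6 replicate 1, edgeR called it too (adjusted p = 0.0258). In convR the closest was Cry1 (unadjusted p = 0.00168), with a fitted peak at 17.4 h in duodenum and 22.2 h in ileum. The highest time mean of Cry1 in convR was nevertheless at ZT18 in both tissues.

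The other genes of the clock were read from lists, with values for at most 3 of each, those with the smallest p. Their counts stand beside 46.3% of all genes called in duodenum (22.5% higher) and 42% in ileum (19.5% higher). Of the activators, 1 of 3 rose over the day in GF duodenum, Clock by 0.42 ± 0.04 (edgeR adjusted p = 1.02e-07). In ileum 2 of 3 rose, Clock by 0.20 ± 0.03 (4.17e-05) and Npas2, a relative of Clock, by 0.60 ± 0.16 (0.00595). Arntl did not pass in either tissue. Of the nuclear receptors that time Arntl and Cry1, 1 of 4 tested fell in each tissue, Rora by 0.31 ± 0.07 in duodenum and 0.43 ± 0.05 in ileum, and none rose. Among the output factors, 3 of 6 rose and 1 fell in duodenum, among them the D-box factors Hlf (rose by 1.42 ± 0.23) and Tef (rose by 0.72 ± 0.15) and the E-box repressor Bhlhe41 (fell by 1.32 ± 0.18). In ileum 2 rose and 2 fell, with Hlf at 1.04 ± 0.17, Tef at 0.49 ± 0.15 and Bhlhe41 at -1.15 ± 0.19. Of 16 kinases, ligases and proteases that act on PER or CRY, 7 rose and 2 fell in duodenum and 4 rose and 2 fell in ileum, so 9 and 6 of 16 were called, near the share of all genes. Csnk1e, a kinase of PER, fell by 0.38 ± 0.06 in duodenum and 0.37 ± 0.05 in ileum. Of 14 genes of the inputs to Per transcription, 6 rose in duodenum, among them Sgk1, a glucocorticoid target (by 1.41 ± 0.38), Fos (by 0.71 ± 0.19) and the glucocorticoid receptor Nr3c1 (by 0.33 ± 0.07). In ileum 5 rose and 2 fell, with Sgk1 at 0.96 ± 0.20, Fkbp5, another glucocorticoid target, at 0.70 ± 0.14, and Crtc1, a cofactor of CREB, at 0.39 ± 0.08. The median differences of the 5 lists in that order were 0.42, 0.36, 0.47, 0.08, 0.22 in duodenum and 0.20, 0.15, 0.23, 0.03, 0.14 in ileum, against -0.01 and 0.01 over all genes.

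At ZT6, when 5 of the 6 repressors were called in duodenum and 3 in ileum, 4 of 6 output factors were called higher and 1 lower in GF duodenum (12.5% of all genes called) and 3 higher and 1 lower in GF ileum (4.6% called). Tef rose by 1.96 ± 0.22 in duodenum and 1.66 ± 0.21 in ileum, and Hlf by 2.93 ± 0.41 and 2.19 ± 0.31. Arntl, whose product drives these genes, fell by 1.35 ± 0.32 in duodenum (edgeR adjusted p = 0.0143) and 1.15 ± 0.21 in ileum (adjusted p = 0.00542). Of the inputs to Per, 4 of 14 rose in duodenum, Sgk1 by 4.36 ± 0.65, Fos by 1.65 ± 0.39 and Tsc22d3, a glucocorticoid target, by 1.88 ± 0.46. In ileum 1 rose, Fos by 1.68 ± 0.36. The duodenum values at this time rest on 3 libraries that stood apart of 4, both convR and GF replicate 1, and the part of those libraries in these list counts was not tested. A 24 h rhythm passed in GF for 5 of 6 output factors in each tissue (2.21% and 1.25% of all genes), among them Tef with adjusted p = 4.15e-07 in duodenum and Dbp with 4.47e-08 in ileum (edgeR). In convR it passed for 0 of 6 in duodenum (5 of 6 with an unadjusted p under 5%) and 1 in ileum (0.0334% and 0.122% of all genes), Tef (0.0264). The fitted peak of Arntl was at 22.8 ± 0.706 h in convR and 21.9 ± 0.329 h in GF duodenum, and at 0.957 ± 0.568 h and 23.5 ± 0.167 h in ileum, opposite in phase to Per3 and Ciart. The fitted peak of Dbp lay before those of the repressors, in convR ileum by less than its SE, at 10.2 ± 0.870 h and 9.85 ± 0.430 h in duodenum and 12.4 ± 0.693 h and 10.2 ± 0.163 h in ileum.

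**Figure D4:**
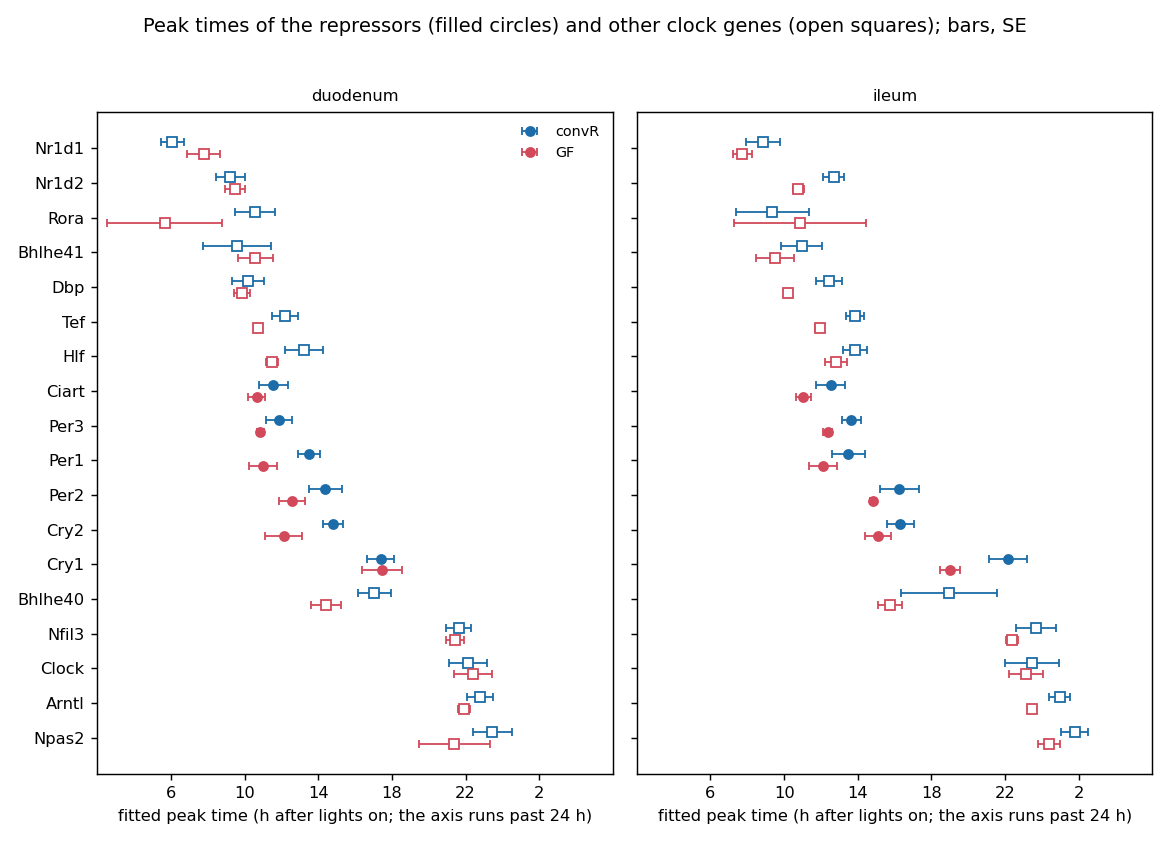
Fitted peak time (hours after lights on, axis running past 24 h) of the 6 repressors (filled circles) and of clock activators, nuclear receptors and output factors (open squares), in convR (blue) and GF (red), with bars of 1 SE. In all 4 groups Ciart is the earliest and Cry1 the last of the repressors, and Nfil3, Clock, Arntl and Npas2 come after Cry1.

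Pattern likeness was measured as Pearson's r of log2(CPM + 0.5) over all 47 libraries, as deviations from the mean of each tissue and status, among 13705 other genes with a mean of at least 2 CPM. The libraries share times and replicate numbers. Per3 was most like Tef (0.98), Camta1 (0.97) and Hlf (0.93), and Ciart most like Dbp (0.93), Camta1 (0.93) and Tef (0.90). Cry1 stood with Tcim (0.83) and Pgk1 (0.82). The genes most like Per1 were Usp2 (0.90), Hlf (0.89) and Itga6 (0.87), those most like Per2 were Fam102a (0.91), Rev1 (0.90) and Wee1 (0.88), and those most like Cry2 were Stk35 (0.89), Gm20695 (0.89) and Naa60 (0.88). Among the repressors themselves, on the same scale, r was highest for Per3 with Ciart (0.89), Per1 with Per3 (0.87) and Per2 with Cry2 (0.86), and negative for Cry1 with Ciart (-0.35), Per3 (-0.23) and Per1 (-0.07). Camta1 spans the whole of Per3 on the same strand of mm10 and shares no exon base with it in GENCODE M21. The exon length given for Camta1 in the count table (32165 bases) exceeds that in GENCODE (14570 bases). Whether the annotation behind the counts separates these genes is not known, and the likeness of the pair is uncertain. The likeness of Camta1 to Ciart is uncertain too, since Ciart itself had an r of 0.89 with Per3. The antisense gene D930015M05Rik (mean 0.395 CPM) shares 295 exon bases with Cry2, and C920021L13Rik (mean 1.17 CPM) lies antisense to Ciart with no shared exon base. Since the strand option of the counting is not known, reads on the bases that Cry2 shares with its antisense partner cannot be told apart. In GENCODE these are 295 of 6320 exon bases of Cry2. The count table gives D930015M05Rik 4724 exon bases against 1190 in GENCODE, so the overlap behind the counts may be larger.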

How the data were processed

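Exon read counts per gene, as deposited, were raw counts made by the authors and not normalized. STAR 2.4.0i and mm10 come from the submitters' processing notes. How exons were counted, from which annotation and with which strand option, is not stated in the labels or headers. Per the labels' protocols, ribosomal RNA was removed and libraries kept strand. Libraries were grouped by the labels. The 6 genes, the lists and the tests were chosen with earlier results of these data known. Genes were filtered with filterByExpr (minimum count 10), scaled with TMM and tested with edgeR 4.0.16 (limma 3.58.1, R 4.3.3) quasi-likelihood tests with robust dispersion, adjusted by Benjamini-Hochberg over all genes tested. The pipeline was tested on simulated data with 200 changed genes. Alternatives were other size factors, no filter, DESeq2 1.42.0, a replicate block, time as a factor, and omitted libraries. Printed CPM used library totals. Shared-spread rhythm fits and exact p-values adjusted over all genes were chosen after seeing the data, since the planned set for peak tests (a rhythm in both statuses) held 2 genes in duodenum and 9 in ileum, with Per3 as the one repressor. In that planned set Per3 in ileum did not pass (exact enumeration, adjusted p = 0.412 for peak time and 0.406 for range). Same-numbered convR libraries of the tissues deviated together (r 0.254 to 0.618 at 6 of 6 times), so the replicate number was taken to pair them. That pairing too was chosen after seeing the data. Gene positions come from GENCODE M21. Named genes were the 6 repressors, the 3 genes of each list with the smallest p, and the 3 most alike genes. Some genes that this rule names are not reported here. Library totals were 22546800 to 41911085 counts, and no interval for counting error is given.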

Additional observations from a re-analysis of the deposited data

How the results depend on the processing

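Over all settings, 193 summary counts stayed within 1.5 times their value as reported and 63 did not. Of the values for single genes, 822 stayed the same, 46 came newly past the threshold, 36 were no longer past it, 19 took the other sign and 7 moved. For tests, the same means the same side of the threshold and, where there is a direction, the same sign. Peak times and ranges count as the same within the combined SE of both statuses, and as moved beyond it. Left-out libraries enter these counts only with the lowest and highest value of each result, so not every lost call is counted. The cause was not tested for any of those that changed. Depth limits Ciart at its trough, where few reads were counted, and with 1 or 2 libraries at each time a single library decides most calls at single times, as given beside them.

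Without the libraries that stood apart, 5299 genes were called between statuses in duodenum, and 4016 calls were made there over the 3 times that still held both statuses. In that setting 1293 genes depended on tissue. With those libraries left out 5 genes had a rhythm in convR ileum and 7 genes a rhythm difference between tissues in convR, while 2 repressors had a rhythm in convR duodenum and 5 in GF duodenum. In that setting the status difference in duodenum was -0.34 for Per2 and -0.25 for Cry1, the convR tissue difference was -0.00603 for Per2 and -0.12 for Cry1, and the tissue dependence was 0.0219 for Per1, 0.36 for Per2 and 0.22 for Cry1. With library totals alone, no repressor had a rhythm in either convR tissue (0 and 0 by edgeR), 7 genes did in convR ileum, the duodenum status difference of Cry1 was -0.00655, the GF tissue difference of Per3 was 0.0858 and its tissue dependence 0.00403.

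With no filter on low counts, 32 genes had a rhythm in convR duodenum and 41 in convR ileum, and calls over single times numbered 14469 in duodenum (22 for the repressors) and 13974 in ileum (16 for the repressors). DESeq2 called a rhythm for 449 genes and 6 repressors in convR duodenum, 1078 and 5 in GF duodenum, 278 and 5 in convR ileum, and 630 genes in GF ileum. It made 11 repressor calls over single times in duodenum, called 4 genes for a rhythm difference between tissues in convR and 27, with 1 repressor, in GF, and put the GF tissue difference of Ciart at 0.0204. With time as a factor, 30 genes and 2 repressors had a rhythm in convR duodenum, 131 genes and 1 repressor in GF duodenum and 48 genes in GF ileum. With a spread shared by both statuses, 149 genes and 4 repressors did in convR duodenum, 246 and 4 in GF duodenum, and 136 and 3 in convR ileum.

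With the replicate block, 2 repressors had a rhythm in convR duodenum, 48 genes and 2 repressors in convR ileum, and 2 repressors differed between tissues in convR. With it 2 genes in convR and 1 gene in GF had a rhythm difference between tissues, and it moved no other count by more than 1.5 times. The number was taken to pair the convR libraries of the tissues, which does not show that they come from the same animals. Elsewhere not every correlation was over 0.1, and no pairing was taken there. In duodenum Fabp6 was higher in replicate 1 than in replicate 2 at every time in both statuses. At ZT2 it was 1.65 and 0.371 CPM in GF and 1.68 and 0.338 CPM in convR. The number may thus mark a shared difference between libraries, which the main tests do not model and whose source was not tested.

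With each library left out in turn, the rhythm counts ran from 1 to 21 genes and 0 to 3 repressors in convR duodenum, 144 to 708 genes and up to 5 repressors in GF duodenum, 1 to 45 genes and 0 to 2 repressors in convR ileum, and 137 to 205 genes in GF ileum. Repressor calls over single times ran from 3 to 9 in duodenum and 4 to 9 in ileum, and tissue calls rose to 2 repressors in both statuses. The rhythm difference between tissues in GF ran from 2 to 7 genes with up to 1 repressor. Signs turned for values that did not pass the test. The status difference of Cry1 ran from -0.0336 to 0.171 in duodenum and from -0.123 to 0.0277 in ileum. The convR tissue difference ran from -0.0603 to 0.124 for Per3 and from -0.0638 to 0.106 for Cry1, and that in GF from -0.0830 to 0.0594 for Per3 and from -0.479 to 0.0806 for Ciart. The tissue dependence ran from -0.164 to 0.0459 for Per3 and from -0.535 to 0.104 for Ciart.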
